A study of Arabidopsis thaliana with 12 samples.

Results

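HRA1 (locus AT3G10040) and CML38 (locus AT1G76650) are a pair of Arabidopsis thaliana genes that respond to low oxygen, and they are followed here through roots given arsenate, low oxygen or both. They were found by locus code in the deposited table of log2 signals, where each had 1 row, and they are 2 of the 16550 genes tested (38408 rows in all). The plants were wild-type Col-0 in hydroponic culture, 39 days old at harvest, and each treatment had lasted 7 days. The arsenic group received 250 µM arsenate, the hypoxia group stood in hypoxic nutrient medium, the combination group had arsenate in hypoxic medium, and the control group had neither. Each group had 3 arrays, which the series text describes as fully independent biological replicates, and the oxygen content of the hypoxic medium is not given in the sources used here.

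Flowering plants sense oxygen through group VII ethylene response factors, transcription factors that are oxidised at an N-terminal cysteine and degraded while oxygen is present, and that persist and switch on a core set of hypoxia genes when oxygen runs short. HRA1 is a trihelix transcription factor that these factors induce in Arabidopsis, and it binds and restrains one of them, so that it acts as a brake within the response. CML38 is a calmodulin-like calcium sensor of Arabidopsis that accumulates under low oxygen, gathers in cytosolic RNA granules and is linked there to the turnover by autophagy of SGS3, a protein of RNA silencing. Of the 29 entries of a list of oxygen sensing and low-oxygen signalling genes, HRA1 and CML38 were the 2 with a row of their own, and the other entries were not analysed here.

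The array medians ran from 4.72 to 4.99 on the log2 scale. Of 16 markers of root cell types, 5 were measured, and their mean log2 signal was 6.43 to 6.69 in arsenic roots, 6.04 to 6.54 in hypoxic roots, 5.41 to 6.08 in combination roots and 7.51 to 7.85 in control roots. In each of the 3 treatments 4 of the 5 fell against control, beside 9.58%, 13.7% and 14.6% of all genes that fell in arsenic, hypoxia and combination roots, and the fifth, AT5G66390, did not pass (0.40, 0.31 and 0.08). The 4 were the root hair genes EXPA7, EXPA18 and XTH26 and the locus AT5G43180. The 2 measured markers of green tissue, of 15 listed, had mean log2 signals of 4.15 to 4.27, 4.49 to 4.68, 3.88 to 4.74 and 4.30 to 4.69 in arsenic, hypoxia, combination and control roots. They did not move together, since RCA rose under hypoxia (0.63) and PSAN fell with arsenate (-0.76) and in the combination (-0.72). The PSAN signals on the arsenic arrays (2.85, 3.10 and 3.05) lay below the first quartiles of those arrays (3.18, 3.12 and 3.13). The part of these markers in the changes below was not tested, and in whole roots fewer cells of a type and less RNA per cell cannot be told apart.

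HRA1 was high in both low-oxygen groups and low in both groups with oxygen. Its log2 signal was 4.33, 4.56 and 4.38 on the arsenic arrays, 5.32, 7.92 and 8.88 on the hypoxia arrays, 6.04, 7.00 and 7.83 on the combination arrays and 4.09, 3.88 and 3.61 on the control arrays. Every low-oxygen array thus lay above every array with oxygen, while the hypoxia and combination arrays overlapped. The group means (± SD, n = 3) ran in the order hypoxia (7.37 ± 1.84), combination (6.96 ± 0.90), arsenic (4.42 ± 0.12) and control (3.86 ± 0.24). Of the neighbours in this order, combination stood apart from arsenic beyond the spread between arrays, and neither hypoxia and combination nor arsenic and control passed the test.

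CML38 was also highest under hypoxia, but its lower groups were ordered differently and its control arrays were far apart. The log2 signal was 5.05, 3.03 and 3.10 on the arsenic arrays, 7.87, 8.22 and 7.91 on the hypoxia arrays, 6.68, 6.42 and 6.95 on the combination arrays and 7.55, 4.88 and 3.94 on the control arrays. The hypoxia arrays lay above all others, with control array 1 (7.55) next to the lowest of them (7.87). Arsenic arrays 2 and 3 lay just under the first quartiles of all rows on the same arrays (3.12 and 3.13), so that the signal there was near the low end of what the arrays report. The means ran in the order hypoxia (8.00 ± 0.19), combination (6.68 ± 0.27), control (5.46 ± 1.87) and arsenic (3.72 ± 1.15), and none of the 3 pairs of neighbours in this order differed past the threshold.

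**Figure D1:**
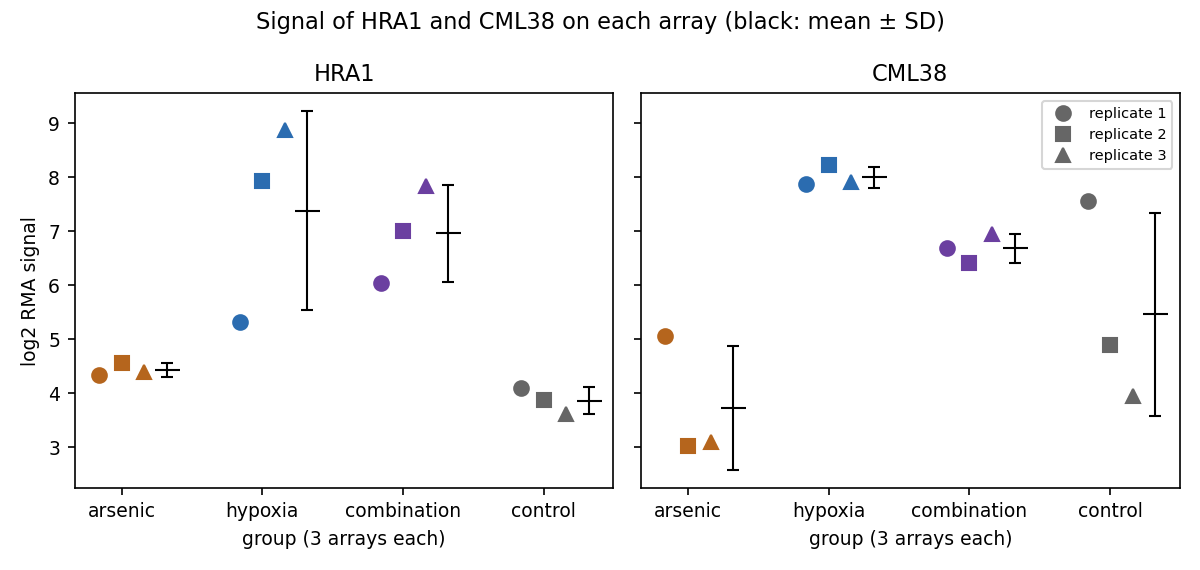
Log2 RMA signal (y axis) of HRA1 (left) and CML38 (right) on each of 12 arrays in the arsenic, hypoxia, combination and control groups (x axis), with the marker shape giving the replicate number and the black bar the mean ± SD of 3 arrays. HRA1 spread most under hypoxia (5.32 to 8.88) and CML38 most in control roots (3.94 to 7.55).

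The spread within groups was unusual for both genes. The pooled within-group SD was 1.03 for HRA1 and 1.11 for CML38, against a median of 0.236 over all genes, and only 39 and 20 of the 16550 genes had a larger one. HRA1 took its spread from the groups in which it was high, and CML38 from the groups in which it was low. The arrays concerned carry the same number in both cases. For HRA1, array 1 was the lowest of its group in hypoxia (3.08 below the mean of the other arrays of that group) and in the combination (1.38 below). For CML38, array 1 was the highest of its group in arsenic (1.99 above the other arrays) and in control roots (3.14 above). The labels name no batch that these arrays share.

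Other hypoxia genes shared the low array 1 of HRA1. Of the 23 other measured genes of a core hypoxia list, 16 were lowest on hypoxia array 1 and 15 on combination array 1, where 38.8% and 38.3% of all genes were lowest. Their median lay 0.69 and 0.39 below the other arrays of the group, against -0.05 and -0.01 over all genes. In control roots, 15 of the 23 were highest on array 1, the array on which CML38 was high, where 31.4% of all genes were highest, and their median there was 0.23 above the other control arrays. On arsenic array 1, 10 of the 23 were highest, beside 41.1% of all genes.

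Hypoxia alone against control asked what low oxygen did to these regulators without arsenate. Both rose (2 of 2), beside 10.8% of all genes that rose and 13.7% that fell in this comparison. HRA1 rose 11.4-fold (log2 change 3.51, SE 0.68, 95% interval 2.04 to 4.99, adjusted p = 0.00246 by limma over all genes), and 34 of the 16550 genes had a larger change. CML38 rose 5.82-fold (2.54, SE 0.73, interval 0.96 to 4.12, adjusted p = 0.0229), and 87 genes had a larger change. The arrays of the groups did not overlap for either gene, as for 40.3% of all genes. The rise of HRA1 was 4.54 without hypoxia array 1 and past the threshold without any 1 of the 6 arrays. The rise of CML38 did not pass without control array 2 (2.25, adjusted p = 0.0864), control array 3 (1.78, adjusted p = 0.0904) or hypoxia array 2 (2.43, adjusted p = 0.0673), and it was 3.59 (adjusted p = 0.000465) without control array 1.

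Arsenate alone against control asked whether arsenate reached the same genes in roots with oxygen. Neither gene passed (0 of 2 by limma, with CML38 at an unadjusted p = 0.0339 and HRA1 at 0.421), beside 17.9% of all genes called in either direction (8.34% rose and 9.58% fell). HRA1 had a log2 change of 0.56 (SE 0.68, interval -0.91 to 2.04, adjusted p = 0.649), although the 3 arsenic arrays (4.33 to 4.56) all lay above the 3 control arrays (3.61 to 4.09), as 39.1% of all genes were free of overlap. With the arsenic and control arrays fitted alone, which leaves out the wide spread of HRA1 in the low-oxygen groups, the same change passed (adjusted p = 0.0370). CML38 had a log2 change of -1.73 (SE 0.73, interval -3.31 to -0.15, adjusted p = 0.128), with overlapping arrays. This value rested on control array 1, since it was -0.69 without that array (adjusted p = 0.447). It was -2.49 without control array 3 (adjusted p = 0.0349) and -1.81 with array weights (adjusted p = 0.0403), both past the threshold.

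The combination against control described roots under both treatments. HRA1 rose 8.55-fold (3.10, SE 0.68, interval 1.62 to 4.57, adjusted p = 0.00434), 1 of the 2 genes to pass, beside 27.7% of all genes called in either direction (13.0% rose and 14.6% fell), and its arrays did not overlap, as for 44.6% of all genes. CML38 had a log2 change of 1.22 (SE 0.73, interval -0.35 to 2.80, adjusted p = 0.239). Its combination arrays (6.42 to 6.95) all lay within the range of the control arrays (3.94 to 7.55). Without control array 1 the change of CML38 was 2.27 and passed (adjusted p = 0.00647), and without control array 3 it was 0.46 (adjusted p = 0.662). All 3 comparisons with control share the same control arrays, so the values of CML38 in them move together.

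Combination against arsenic gave the effect of low oxygen in roots that also had arsenate, and it does not use the control arrays. Both genes rose (2 of 2), beside 5.33% of all genes that rose. HRA1 rose 5.78-fold (2.53, SE 0.68, interval 1.06 to 4.00, adjusted p = 0.0291) and CML38 rose by 2.96 on the log2 scale (SE 0.73, interval 1.38 to 4.54, adjusted p = 0.0193). No fold is given for CML38, since 2 of its 3 arsenic arrays lay below the first quartile of their array, near the low end of what the arrays report. Only 37 and 23 of the 16550 genes had larger changes, and the arrays did not overlap for either gene, as for 30.8% of all genes. With 1 array fewer the threshold was often missed, for HRA1 without any 1 of the arrays except combination 1 (adjusted p = 0.0665 to 0.0966) and for CML38 without any 1 except arsenic 1 (adjusted p = 0.0501 to 0.0853), while the changes stayed between 2.09 and 2.99 for HRA1 and between 2.61 and 3.62 for CML38.

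Combination against hypoxia gave the effect of arsenate under low oxygen. Neither gene passed (0 of 2 by limma, at unadjusted p = 0.550 for HRA1 and 0.0948 for CML38), beside 3.46% of all genes called (1.88% rose and 1.58% fell). HRA1 had a log2 change of -0.42 (SE 0.68, interval -1.89 to 1.06, adjusted p = 0.787), which became -1.44 (adjusted p = 0.0626) without hypoxia array 1 and turned to 0.33 without hypoxia array 3 and to 0.042 without combination array 1. CML38 had a log2 change of -1.32 (SE 0.73, interval -2.90 to 0.26, adjusted p = 0.354). Its combination arrays (6.42 to 6.95) all lay below its hypoxia arrays (7.87 to 8.22), as 20.3% of all genes were free of overlap, and the change stayed between -1.45 and -1.18 when any 1 array was left out. The SE comes from a spread shared by all 4 groups, and the SDs of CML38 in these 2 groups (0.27 and 0.19) were the smallest of the 4. With the combination and hypoxia arrays fitted alone, the same change of CML38 narrowly missed the threshold (adjusted p = 0.0524 by limma). That fit called 30 genes in all.

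Hypoxia set directly against arsenic gave the widest contrast for CML38. CML38 rose by 4.28 on the log2 scale (SE 0.73, interval 2.70 to 5.85, adjusted p = 0.00140), a size subject to the same low arsenic signals, with 15 genes of larger change, and HRA1 rose 7.72-fold (2.95, SE 0.68, interval 1.48 to 4.42, adjusted p = 0.00847), with 51. Both of the 2 genes passed, beside 9.67% of all genes that rose, and both did so without any 1 of the arrays compared. The interaction asked whether the response to both treatments differed from the sum of the responses to each. It did not pass for HRA1 (-0.98, SE 0.96, interval -3.06 to 1.10, adjusted p = 0.673) or CML38 (0.42, SE 1.03, interval -1.82 to 2.65, adjusted p = 0.884), beside 2.76% of all genes called (1.34% positive and 1.43% negative), at unadjusted p = 0.326 and 0.692.

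**Figure D2:**
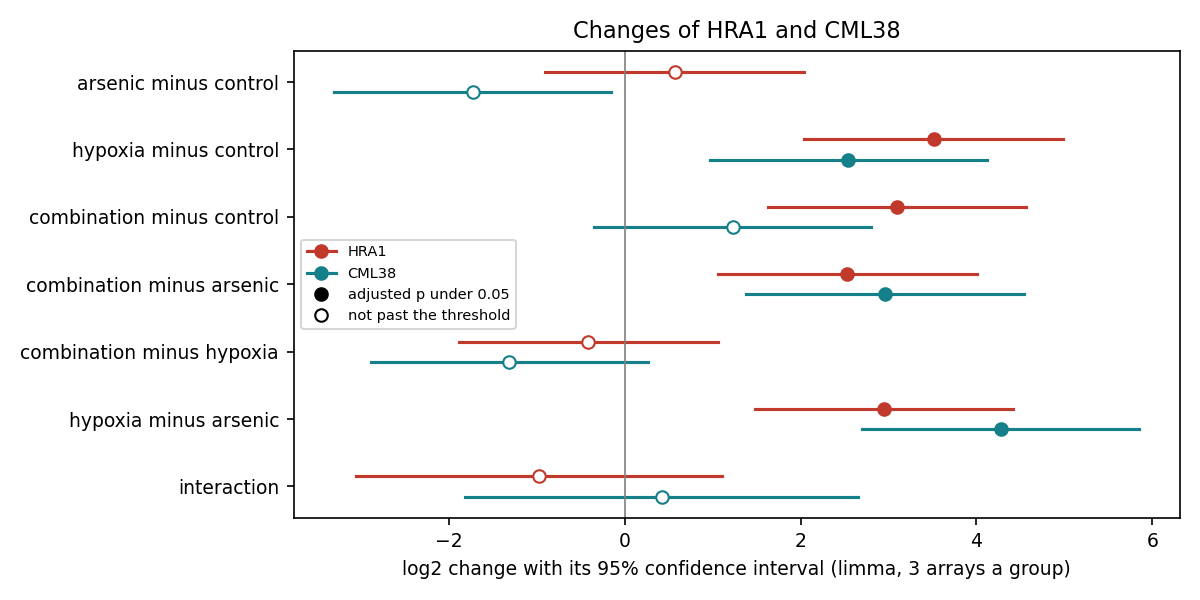
Log2 changes (x axis) of HRA1 and CML38 in 7 comparisons (y axis), with lines for the 95% confidence intervals of the limma fit and filled points for an adjusted p under 0.05. Both genes passed in hypoxia against control, combination against arsenic and hypoxia against arsenic, and HRA1 alone passed in combination against control.

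Whether both genes moved by the same amount was tested on the difference of log2 HRA1 minus log2 CML38 within each array, with an exact two-sided permutation test over 3 against 3 arrays, which cannot go below p = 0.1. The change of HRA1 exceeded that of CML38 by 2.30 (SE 1.19) in arsenic against control, by 1.87 (SE 1.06) in combination against control and by 0.97 (SE 1.40) in hypoxia against control, at exact p = 0.2, 0.2 and 0.5. In combination against arsenic, combination against hypoxia and hypoxia against arsenic the differences were -0.43 (SE 0.85), 0.90 (SE 1.13) and -1.33 (SE 1.25), at exact p = 0.6, 0.7 and 0.4. The adjusted p over the 6 comparisons was 0.6 or more throughout, and since the test could not pass 0.05, it does not decide whether the genes moved by different amounts.

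The core hypoxia list held 52 loci, 25 of them measured and 23 of these besides HRA1 and CML38. Under hypoxia 18 of the 25 rose, none fell and 7 did not pass, beside 10.8% of all genes that rose and 13.7% that fell, with a median log2 change of 2.46 against 0.07 over all genes. HRA1 ranked among the upper part of the list, below AT5G10040 (8.15), AT2G17850 (6.85), AT3G03270 (4.47), AT4G24110 (4.30) and AT4G27450 (3.85). The size for AT2G17850 is subject to control signals of 2.96, 2.63 and 2.86, below the first quartiles of those arrays (3.08, 3.06 and 3.09). CML38 (2.54) lay near the median, between AT5G44730 (2.60) and AT5G66985 (2.46). The fermentation genes PDC2, a pyruvate decarboxylase, and AlaAT1, an alanine aminotransferase, rose by 2.20 and 2.08. When hypoxia array 1 was left out 22 of the 25 rose, in a fit whose share of all genes is not given here. With all arrays, others that rose were AT3G27220 (3.38), AT3G23170 (3.23), AT1G19530 (2.96), AT4G17670 (2.94), AT4G17260 (1.78), AT1G26270 (1.34) and FHL (1.14). The 7 that did not pass were AT5G42200 (1.18), AT4G39675 (0.74), AT2G15880 (0.63), AT5G27760 (0.53), AT1G74940 (0.51), AT5G26200 (0.08) and AT5G45960 (0.04).

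In the combination 17 of the 25 rose against control and none fell, beside 13.0% and 14.6% of all genes (median 1.94, against 0.09 over all genes). CML38 was the 1 gene of the 18 called under hypoxia that did not pass in the combination. Against hypoxia alone none of the 25 passed by limma in the combination (2 had an unadjusted p under 0.05), while 23 of 25 had a negative change (median -0.42, against -0.01 over all genes). Of these, CML38 had the lowest change (-1.32) and was 1 of the 2 whose arrays did not overlap, a smaller share than the 20.3% of all genes, the other being AT4G39675 (-1.11, SE 0.38, adjusted p = 0.131). Without hypoxia array 1, 5 of the 25 fell in this comparison. The share of all genes that fell in that fit is not given here, so the count is not read as a result about the list.

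With arsenate alone 3 of the 25 rose, 4 fell and 18 did not pass (median 0.08, against -0.01 over all genes). These counts are near the background of 8.34% that rose and 9.58% that fell, and the genes are named as members only, not as a result about the list. The members that fell were AT4G39675 (-4.31, SE 0.38, adjusted p = 1.69e-05), AT5G26200 (-3.31, SE 0.72, adjusted p = 0.00701), AT2G15880 (-2.34, SE 0.25, adjusted p = 5.50e-05) and AT4G27450 (-0.63). Those that rose were AT4G17670 (1.91), AT5G27760 (1.49) and AlaAT1 (0.58). The value of CML38 (-1.73) was the fourth lowest of the list, and that of HRA1 (0.56) lay between those of AT5G10040 (0.56), which did not pass, and AlaAT1. Low oxygen on top of arsenate raised 20 of the 25 and lowered AT5G27760 (-1.17), beside 5.33% of all genes that rose and 6.67% that fell, with a median of 2.29 against 0.05 over all genes. Without combination array 2 or combination array 3, 13 of the 25 rose, in fits whose shares of all genes are not given here.

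**Figure D3:**
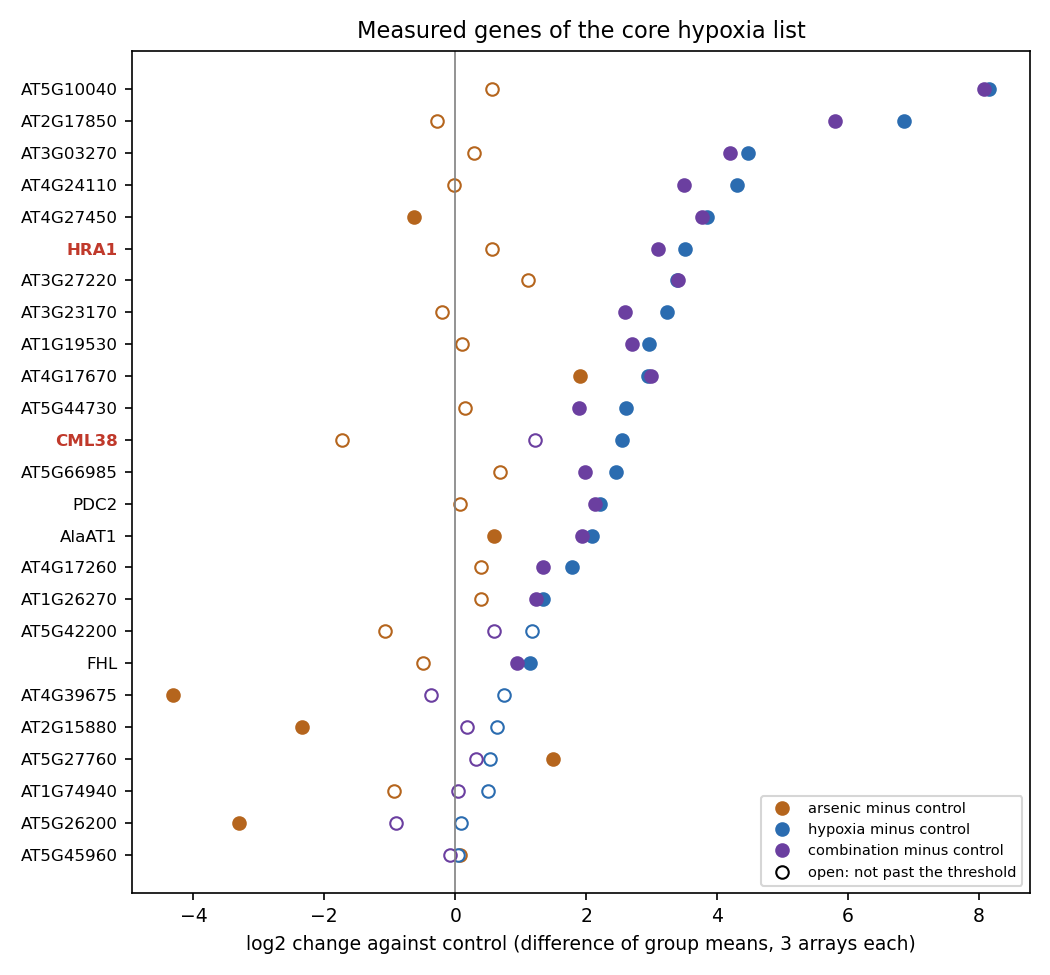
Log2 change against control (x axis) of the 25 measured genes of the core hypoxia list (y axis, ordered by the change under hypoxia) for arsenic, hypoxia and combination, with open points for changes not past the threshold. HRA1 lies at 3.51 and 3.10 under hypoxia and the combination, and CML38 at 2.54 and 1.22.

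The gene families of the members were compared next. Of 29 trihelix loci 23 were measured, and under hypoxia 6 rose, 4 fell and 13 did not pass, beside 10.8% and 13.7% of all genes that rose and fell (median 0.11, against 0.07 over all genes). HRA1 had the largest change, followed by AT2G38250 (2.29, SE 0.34, adjusted p = 0.000377), which also rose in the combination (2.36), and the flower organ regulator PTL fell by 1.21 (SE 0.22, adjusted p = 0.00180). AT2G38250 had a log2 signal of 8.47, 8.08 and 7.02 on the hypoxia arrays, 8.15, 8.15 and 7.48 on the combination arrays and 6.04, 5.46 and 5.19 on the control arrays, so that hypoxia array 1, the lowest for HRA1, was the highest of its group here. Apart from HRA1 and AT2G38250, the trihelix changes under hypoxia lay between -1.21 (PTL) and 0.75. The call count was 9 that rose and 2 that fell with arrays re-centred on their medians, beside 3654 and 1665 of all 16550 genes. It was 3 that rose and 3 that fell without control array 3, in a fit whose share of all genes is not given here.

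Of 57 calmodulin and calmodulin-like loci 34 were measured, and under hypoxia 10 rose, 1 fell and 23 did not pass, beside the same 10.8% and 13.7% (median 0.29). CML38 had the largest change, followed by AT3G47480 (1.85, SE 0.39, adjusted p = 0.00446) and CML41 (1.47, SE 0.21, adjusted p = 0.000293). In the combination 2 rose and 4 fell against control (median 0.15), no larger shares than the 13.0% and 14.6% of all genes, among them AT3G47480 with a rise of 1.60. The background moved with the processing as well. With array weights 8 of the 34 rose and 5 fell, beside 3186 and 2920 of all 16550 genes. With re-centred arrays 7 rose and 3 fell, beside 3108 and 2014 of all genes. Without control array 1, 4 rose and 2 fell, in a fit whose share of all genes is not given here. CML41 was the 1 gene of the 34 called in combination against hypoxia, where it fell by 0.88 (SE 0.21, adjusted p = 0.0401), a count near the 3.46% of all genes called. A negative change was seen there for 29 of the 34 (median -0.27, against -0.01 over all genes). The share of all genes with a negative change is not given here. The log2 signal of CML41 was 4.78, 5.20 and 4.82 on the combination arrays and 5.63, 5.52 and 6.30 on the hypoxia arrays, without overlap. None of the family was called there with array weights, with all rows tested, or without combination array 2, combination array 3, hypoxia array 2 or hypoxia array 3. With arrays re-centred on their medians 15 of the family rose under hypoxia, beside 3654 of all 16550 genes, against 1791 of all genes as deposited. Without hypoxia array 2, 7 of the family rose, in a fit whose share of all genes is not given here.

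**Figure D4:**
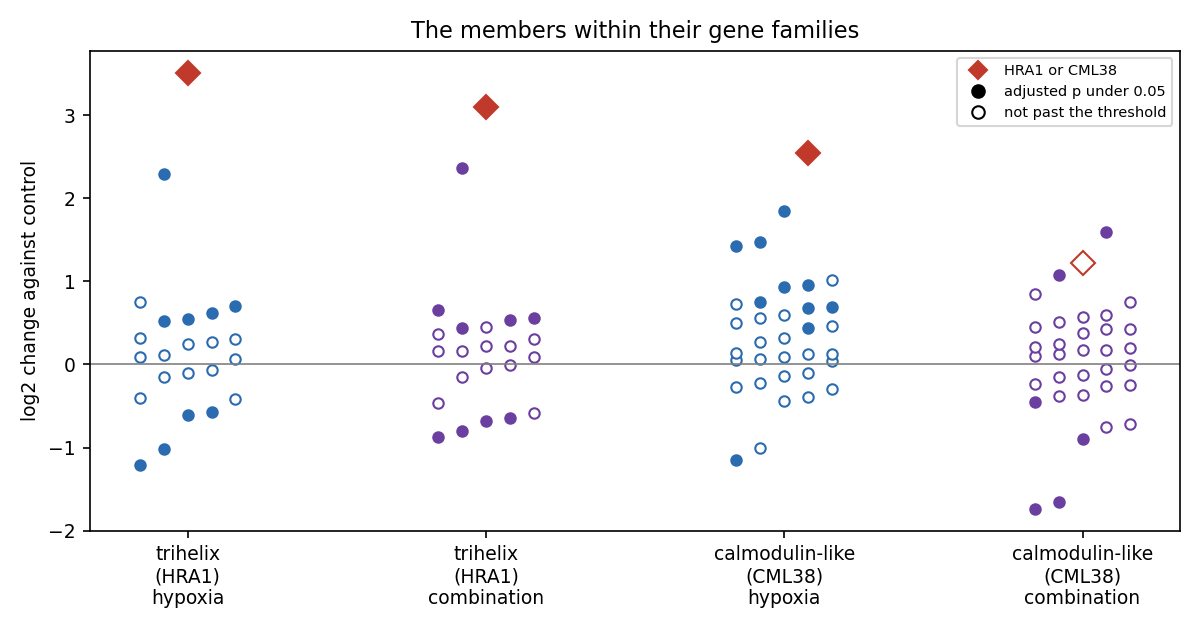
Log2 change against control (y axis) of the 23 measured trihelix genes and the 34 measured calmodulin and calmodulin-like genes under hypoxia and in the combination (x axis), with diamonds for HRA1 and CML38 and open symbols for changes not past the threshold. HRA1 (3.51 and 3.10) lies above its family in both, and CML38 above its family under hypoxia (2.54).

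None of the measured neighbours of HRA1 and CML38 on the chromosome passed under hypoxia. CML39 (AT1G76640), the calmodulin-like gene next to CML38, did not pass under hypoxia (-0.27, SE 0.51, adjusted p = 0.733), with arsenate (-0.79) or in the combination (-0.75). Its control arrays were nevertheless uneven in the way of CML38, at 6.29, 3.69 and 4.16, as were its arsenic arrays at 4.52, 3.63 and 3.64. Close paralogs can bind each other's probes, and how far they did was not tested. On the other side of CML38, AT1G76660 did not pass in these comparisons (0.30 under hypoxia). Near HRA1, the trihelix locus AT3G10030 did not pass under hypoxia (0.31, adjusted p = 0.113) and rose by 0.44 in the combination (adjusted p = 0.0271), and AT3G10060 did not pass in either (0.27 and 0.19).

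Across the 12 arrays the genes most like HRA1 were AT1G20270 (Pearson r of log2 signal 0.987), AT4G34950 (0.982), AT2G43420 (0.978), AT3G27220 (0.978) and AT1G75810 (0.969). These correlations only describe the arrays. With every group centred on its mean they were 0.865 to 0.971, which the choice of genes also favours, since the spread of HRA1 within groups enters the correlation that chose them. AT1G20270 had a log2 signal of 6.51, 6.67 and 6.62 on the arsenic arrays, 6.80, 8.52 and 8.57 on the hypoxia arrays, 7.28, 7.80 and 8.11 on the combination arrays and 6.62, 6.33 and 6.32 on the control arrays, so that hypoxia array 1 was the low one of its group. The log2 changes of the 5 under hypoxia were 0.84 to 3.38, as the choice by likeness to HRA1 favours, and AT3G27220 is in the core hypoxia list.

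The genes most like CML38 were AT2G37810 (r = 0.945), AT4G18280 (0.942), AT3G61670 (0.929), AT5G09370 (0.927) and AT1G09932 (0.925), with r of 0.747 to 0.911 once groups were centred. AT5G09370 read only 2.09 to 2.71 over the 12 arrays, below the first quartile of every array (3.06 to 3.18). Its r thus rests on signals near the low end of what the arrays report. AT4G18280 had a log2 signal of 5.44, 4.04 and 4.23 on the arsenic arrays, 8.06, 7.47 and 7.50 on the hypoxia arrays, 7.71, 6.87 and 6.89 on the combination arrays and 6.61, 4.64 and 4.09 on the control arrays. Array 1 was its highest in every group. The log2 changes of the 5 under hypoxia were 0.27 to 2.56, likewise favoured by the choice. Among them AT2G37810 (0.76, adjusted p = 0.0745) and AT5G09370 (0.27, adjusted p = 0.141) did not pass by limma. None of the 5 is in the core hypoxia list. HRA1 and CML38 correlated with each other at r = 0.667 over the 12 arrays and at 0.126 once groups were centred. They thus shared part of the difference between groups and little of the spread within them. Counting HRA1 itself, 1327 genes had a higher r with HRA1 than CML38 had. Counting CML38 itself, 939 had a higher r with CML38 than HRA1 had.

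**Figure D5:**
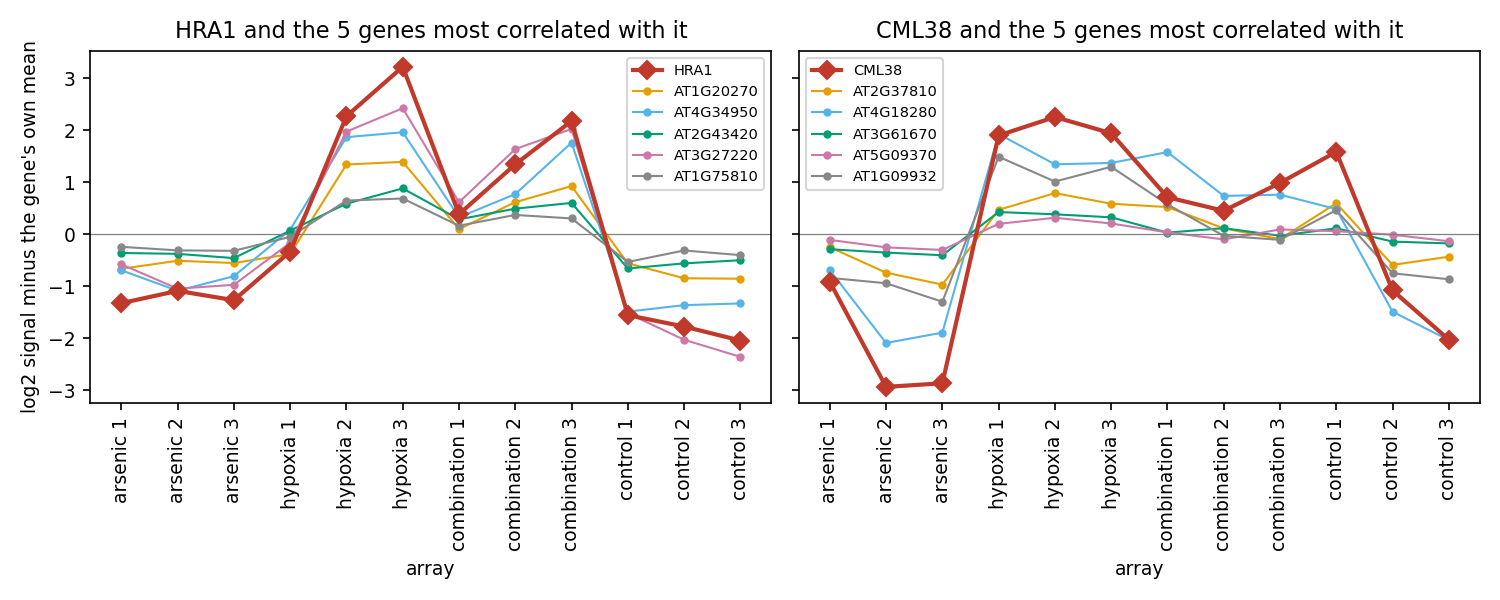
Log2 signal minus each gene's own mean over 12 arrays (y axis) on every array (x axis) for HRA1 (left) and CML38 (right), each with the 5 genes most correlated with it. The HRA1 group is low on hypoxia array 1, and the CML38 group is high on control array 1.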

How the data were processed

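Total RNA of 12 root samples was hybridised to Affymetrix arrays. The authors deposited a log2 signal for each probe set, made by RMA (background correction, quantile normalization and probe summary), with versions 1.4 and 1.4.1 of Expression Console and version 3.1 of Transcriptome Analysis Console, per the submitters' processing notes. No genome build is given in the sources used here, so no coordinates are printed.

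Of 38408 rows, 16722 named 1 gene, 759 named several and 20927 were not listed in the platform annotation. Gene identifiers matched a RefSeq table (assembly TAIR10.1, names only) for 16574 rows, and 148 had no match. The row with the highest mean was kept per gene, leaving 16550 genes. All arrays were fitted with limma 3.58.1 in R 4.3.3 (group means, eBayes, two-sided, Benjamini-Hochberg within a comparison, threshold 0.05). The number of arrays limits the precision.

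HRA1, CML38 and the gene lists were chosen with earlier results of these data known. Named genes were every measured core hypoxia gene, of the other lists the 3 largest changes under hypoxia and up to 3 calls in combination against hypoxia, and the 5 genes most correlated with each member. Root markers, ATG8E, AT3G10030 and others named to complete a count, and neighbours on the chromosome were added after their values were seen. Alternatives were a replicate block, re-centred arrays, repeated quantile normalization, low-signal genes left out, trend and robust variance, array weights, only the arrays compared, all rows tested, and each array left out.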

Additional observations from a re-analysis of the deposited data

Results flagged for a closer look

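The interaction of arsenate and hypoxia passed for 9 of the 99 measured genes of all lists, beside 2.76% of all genes, so that the effect of arsenate differed between roots with oxygen and hypoxic roots for these 9. In the core hypoxia list it was 3.20 (SE 0.54, adjusted p = 0.00799) for AT4G39675 and 1.89 (SE 0.35, adjusted p = 0.0130) for AT2G15880, whose arsenate changes were -4.31 and -2.34 with oxygen and -1.11 and -0.45 under hypoxia. It was -1.86 (SE 0.35, adjusted p = 0.0130) for AT4G17670 and -1.70 (SE 0.29, adjusted p = 0.00800) for AT5G27760, whose arsenate changes were 1.91 and 1.49 with oxygen and 0.05 and -0.21 under hypoxia.

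Outside that list the interaction was 1.58 (SE 0.21, adjusted p = 0.00221) for AGO7, an Argonaute protein of small RNA pathways, and -1.48 (SE 0.33, adjusted p = 0.0351) for ATG8B and -1.42 (SE 0.29, adjusted p = 0.0228) for ATG8H, both autophagy proteins. Among the trihelix genes it was 1.41 (SE 0.28, adjusted p = 0.0173) for GT2 and 0.91 (SE 0.20, adjusted p = 0.0275) for AT1G76880. AGO7 had log2 signals of 5.60, 5.88 and 5.92 on the arsenic arrays, 5.91, 5.58 and 5.77 on the hypoxia arrays, 5.67, 5.90 and 6.03 on the combination arrays and 7.32, 7.28 and 7.22 on the control arrays, so that the 3 treated groups lay together below control.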

How the results depend on the processing

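Of the values for HRA1 and CML38, those of HRA1 in hypoxia against control, combination against control and hypoxia against arsenic, and that of CML38 in hypoxia against arsenic, kept their call under every alternative run. With only the arrays compared, CML38 missed the threshold in hypoxia against control (2.54, adjusted p = 0.0532), HRA1 passed in arsenic against control (0.56), and 30 genes were called in combination against hypoxia, against 573 in the fit of all groups. With array weights CML38 passed in arsenic against control (-1.81), and 4700, 3527 and 886 genes were called in arsenic against control, combination against arsenic and the interaction, against 2965, 1986 and 457. With all rows tested HRA1 missed the threshold in combination against arsenic (2.53, adjusted p = 0.0565). Of the 38408 rows, 5113, 7517, 8437, 3100 and 7226 were called in arsenic, hypoxia and combination against control, combination against arsenic and hypoxia against arsenic. In the main fit 2965, 4060, 4578, 1986 and 3638 of the 16550 genes were called there, each a larger share of what was tested. The cause was not tested, beyond the larger number of rows and smaller number of arrays that these choices set.

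Leaving out 1 array at a time, the log2 change of HRA1 ranged over 0.44 to 0.68 in arsenic, 2.76 to 4.54 in hypoxia and 2.66 to 3.56 in combination against control, 2.09 to 2.99 in combination against arsenic, -1.44 to 0.33 in combination against hypoxia, 2.20 to 3.98 in hypoxia against arsenic and -2.01 to -0.23 in the interaction. That of CML38 ranged over -2.49 to -0.69, 1.78 to 3.59, 0.46 to 2.27, 2.61 to 3.62, -1.45 to -1.18, 3.93 to 4.94 and -0.63 to 1.18 in the same order, with its interaction at -0.63 without control array 1. HRA1 in combination against hypoxia changed sign without combination array 1 (0.042) and hypoxia array 3 (0.33). The change of HRA1 minus that of CML38 changed sign in combination against arsenic without combination array 1 (0.030, range -1.14 to 0.030) and in combination against hypoxia without hypoxia array 1 (-0.061, range -0.061 to 1.70). Counts of genes called ranged over 1889 to 2492, 2836 to 3664, 3494 to 4151, 1065 to 1824, 101 to 1000, 2168 to 3420 and 213 to 502 in that order of comparisons, with the lowest and highest in combination against hypoxia without combination array 2 and combination array 1.

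With arrays re-centred on their medians, the median change of all genes under hypoxia was 0.25, against 0.07 as deposited, and no call on HRA1 or CML38 changed. The split of genes that rose and fell moved to 3654 and 1665 in hypoxia against control (1791 and 2269 as deposited), 3108 and 2014 in combination against control (2158 and 2420), 1296 and 871 in combination against arsenic (882 and 1104), 187 and 311 in combination against hypoxia (311 and 262), 3021 and 1319 in hypoxia against arsenic (1601 and 2037) and 152 and 262 in the interaction (221 and 236). Same-numbered arrays of different groups deviated together at r from -0.08 to 0.31 across genes. This was not over 0.1 for every pair, so the numbers were not taken to pair the arrays. For arrays numbered 1, r ran from 0.07 (arsenic and control) to 0.31 (combination and hypoxia). Unlike numbers reached more in arsenic and control (0.13) and arsenic and hypoxia (0.12 against 0.08), but in no other pair. Combination and hypoxia arrays numbered 2, among others, were also exceeded (-0.08 against 0.09). Whether arrays numbered 1 share a cause was not tested. A replicate block changed no call on HRA1 or CML38, with 4169 genes called in hypoxia against control and adjusted p of 0.000995 for HRA1 and 0.00903 for CML38 there.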

Other observations

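CML38 is known from RNA granules and from the turnover of SGS3 by autophagy, and 12 of 25 genes listed for RNA granules, gene silencing and autophagy were measured. Arsenate raised 5 of the 12 and lowered 1 (median 0.35, against -0.01 over all genes), beside 8.34% of all genes that rose and 9.58% that fell. Under hypoxia none of the 12 rose and 1 fell by limma (median 0.26), beside 10.8% and 13.7% of all genes. Of the 12, 4 had a positive change at an unadjusted p under 0.05, a cut for which no share of all genes is given here. With arrays re-centred on their medians 4 rose, beside 3654 of all 16550 genes. In the combination 1 rose and 2 fell against control (median 0.10), near the 13.0% and 14.6% of all genes.

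ATG8B (AT4G04620), a member of the ATG8 family of proteins that decorate autophagosomes, had log2 signals of 8.19, 7.99 and 8.40 on the arsenic arrays, 6.92, 7.58 and 6.76 on the hypoxia arrays, 6.88, 7.61 and 7.47 on the combination arrays and 6.30, 6.57 and 6.59 on the control arrays. The arsenic arrays lay above all others. It rose by 1.71 with arsenate (SE 0.24, adjusted p = 0.000346) and by 0.83 in the combination (adjusted p = 0.0190). ATG8E did not pass with arsenate (0.81, adjusted p = 0.0694). AGO7 was the 1 gene of the list that fell with arsenate (-1.47) and under hypoxia (-1.52), and it also fell in the combination (-1.41). The count of rises with arsenate was 3 without arsenic array 3, control array 2 or control array 3. The shares of all genes in those fits are not given here, so this count is not read as a result about the list. The count was 6 with array weights, beside 2160 of all 16550 genes that rose in that fit.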
